A study of Mus musculus with 14 samples.

Results

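The de novo lipogenesis genes followed here are the 10 genes Fasn, Acaca, Acacb, Acly, Scd1, Scd2, Elovl6, Srebf1, Mlxipl and Thrsp. They were taken by symbol from the 23441 genes of the deposited count matrix, and their counts without regard to strand were read from the 14 per-sample tables, which list 55401 genes. Each symbol matched 1 gene, and all 10 were among the 17494 genes that passed the filter on low counts. RNA was sequenced from constitutive bone marrow adipose tissue (cBMAT), the adipocyte-rich marrow plug of the distal tibia.

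All mice were males of 24 weeks on a mixed C57BL6/SJL background. Control and knockout mice alike carried Osterix-FLPo and an FLPo-activated Adipoq-Cre, so that Cre is switched on only in cells that have passed through the Osterix-expressing skeletal lineage and express Adipoq, which are bone marrow adipocytes (BMAds) and a small number of stromal cells. BMAd-Pnpla2-/- mice also carried floxed Pnpla2, the gene of adipose triglyceride lipase, and BMAd-Pnpla2+/+ mice did not. The Cre was inserted behind Adipoq and lowers adiponectin in all groups, and recombination in BMAds is not complete. Mice were fed ad libitum (AL) or placed on 30% calorie restriction (CR) for 6 weeks, with the restricted ration given once a day in the evening. The 4 groups were BMAd-Pnpla2+/+ AL (n = 4), BMAd-Pnpla2+/+ CR (n = 4), BMAd-Pnpla2-/- AL (n = 3) and BMAd-Pnpla2-/- CR (n = 3). Each library pooled the plugs of 2 mice.

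Libraries held 18898324 to 21665553 gene counts. The 3 BMAd-Pnpla2-/- CR libraries had 50.1% to 50.5% of their strand-assigned counts on the first strand, against 4.30% to 4.62% in the other 11, so library type and this group cannot be told apart. Acaca, Acacb, Elovl6, Srebf1 and Mlxipl overlap a gene on the other strand (Gm11437, Gm13784, Gm35986, Rai1 and Gm43500), whose reads can be counted here. In the 11 stranded libraries at most 3.45% of a member's strand-assigned counts lay on that strand. That maximum was in Thrsp, which overlaps no such gene, and among the overlapped genes it was 2.25%, in Elovl6. Reads that lie on both genes can also be lost. The count without strand was as low as 92.5% of the reverse-strand count for Mlxipl. Pnpla2 stood at 176 to 305 CPM (gene counts scaled to a common library size) in BMAd-Pnpla2+/+ AL, against 509 to 1029 in BMAd-Pnpla2+/+ CR. It stood at 133 to 172 CPM in BMAd-Pnpla2-/- AL, against 179.6 to 271 in BMAd-Pnpla2-/- CR. The level was lower in the knockout under CR (log2 fold change -1.91, SE 0.26, adjusted p = 0.0387) and did not pass the test under AL (-0.57, SE 0.25, adjusted p = 0.99997). The adjusted p under CR missed 0.05 in 8 of the 14 fits that left out 1 library.

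In de novo lipogenesis, citrate exported from mitochondria is cut to acetyl-CoA by Acly, acetyl-CoA is carboxylated to malonyl-CoA by Acaca and Acacb, and Fasn builds palmitate from both. Elovl6 lengthens palmitate to stearate, and the stearoyl-CoA desaturases Scd1 and Scd2 add the double bond that gives oleate and palmitoleate. The transcription factors Srebf1, which responds to insulin, and Mlxipl (ChREBP), which responds to glucose, switch these genes on in liver and fat, and Thrsp (Spot 14) is a nuclear and cytosolic protein that promotes the same pathway. Restricted rodents fed once a day are known to synthesise fat after the meal and to burn it later in the day.

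The stretches upstream of 4 genes are shown because their response to CR differed: Fasn and Mlxipl rose, Acly did not pass the test and Elovl6 fell. They were read from the RefSeq promoter windows of GRCm38.p6, 5′ to 3′ on the gene's strand, and hold the 250 bases before the RefSeq start site, cut to 219 for Elovl6 where the GENCODE gene begins. Capitals mark CCAAT, its reverse complement ATTGG, the GC box GGGCGG, its reverse complement CCGCCC and the E-box CACGTG.
Fasn, chr11:120824548-120824797, minus strand: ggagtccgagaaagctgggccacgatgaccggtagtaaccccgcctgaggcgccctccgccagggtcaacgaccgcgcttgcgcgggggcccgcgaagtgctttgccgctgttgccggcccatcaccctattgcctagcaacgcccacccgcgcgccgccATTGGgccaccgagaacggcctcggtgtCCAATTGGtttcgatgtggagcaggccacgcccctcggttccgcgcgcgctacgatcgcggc
Mlxipl, chr5:135089640-135089889, plus strand: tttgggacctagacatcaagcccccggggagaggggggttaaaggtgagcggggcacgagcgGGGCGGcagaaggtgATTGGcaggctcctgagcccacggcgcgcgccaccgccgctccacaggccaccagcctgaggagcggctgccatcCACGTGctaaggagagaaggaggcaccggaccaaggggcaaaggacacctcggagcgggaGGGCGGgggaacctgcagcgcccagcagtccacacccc
Acly, chr11:100528001-100528250, minus strand: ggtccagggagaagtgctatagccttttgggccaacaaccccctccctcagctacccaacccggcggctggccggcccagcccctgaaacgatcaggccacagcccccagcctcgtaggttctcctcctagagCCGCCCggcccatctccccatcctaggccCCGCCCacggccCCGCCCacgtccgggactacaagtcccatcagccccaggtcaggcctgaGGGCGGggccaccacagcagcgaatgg
Elovl6, chr3:129532136-129532354, plus strand: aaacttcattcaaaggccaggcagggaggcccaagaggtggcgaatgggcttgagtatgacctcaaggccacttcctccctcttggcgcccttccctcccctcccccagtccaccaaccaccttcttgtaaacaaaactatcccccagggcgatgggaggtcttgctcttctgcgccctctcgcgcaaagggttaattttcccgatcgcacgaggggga
Fasn held 3 CCAAT boxes, of which 2 overlapped on opposite strands as CCAATTGG, and no GC box or E-box. Acly held 4 GC boxes and no CCAAT box or E-box. Mlxipl held 2 GC boxes, 1 CCAAT box and the E-box, and Elovl6 held none of the 3 motifs. Among all 32851 windows of this table, 33.8% held a CCAAT box on either strand, 32.7% a GC box and 6.02% an E-box. Windows were found for 8 members, Scd1 and Scd2 being the others, and several start sites gave 11 windows. A CCAAT box was found for 5 of the 8 genes, a GC box for 3 and the E-box for Mlxipl alone. By window, as the shares of the whole table are counted, these were 6, 4 and 1 of 11. Several windows, those of Acaca and Acacb among them, lie inside the gene as GENCODE places it. The sterol regulatory element TCACNCCAC was found on either strand in 1.05% of all windows and, among the members, in a second Mlxipl window only. A match is a run of letters and no evidence of binding.

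Under CR, most of the 10 members rose in BMAd-Pnpla2+/+ cBMAT. Fasn rose 5.14-fold, Acacb 3.78-fold, Acaca 3.21-fold and Scd1 5.87-fold, and Mlxipl and Thrsp rose 5.14-fold and 5.23-fold. Srebf1 rose 1.47-fold, Elovl6 fell to 0.521 of its AL level, and Acly and Scd2 did not pass the test. In total 7 of 10 members rose and 1 fell at an adjusted p under 0.05 in edgeR's quasi-likelihood test, where 26.0% of all genes tested changed (2628 rose and 1915 fell). With a log2 fold change over 1 asked for as well, 6 members rose, against 7.26% of all genes. The median log2 fold change was 1.80 over the members and 0.003 over all genes. The groups did not overlap for 6 members that were higher (12.3% of all genes) and for 1 that was lower (10.4%).

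**Figure D1:**
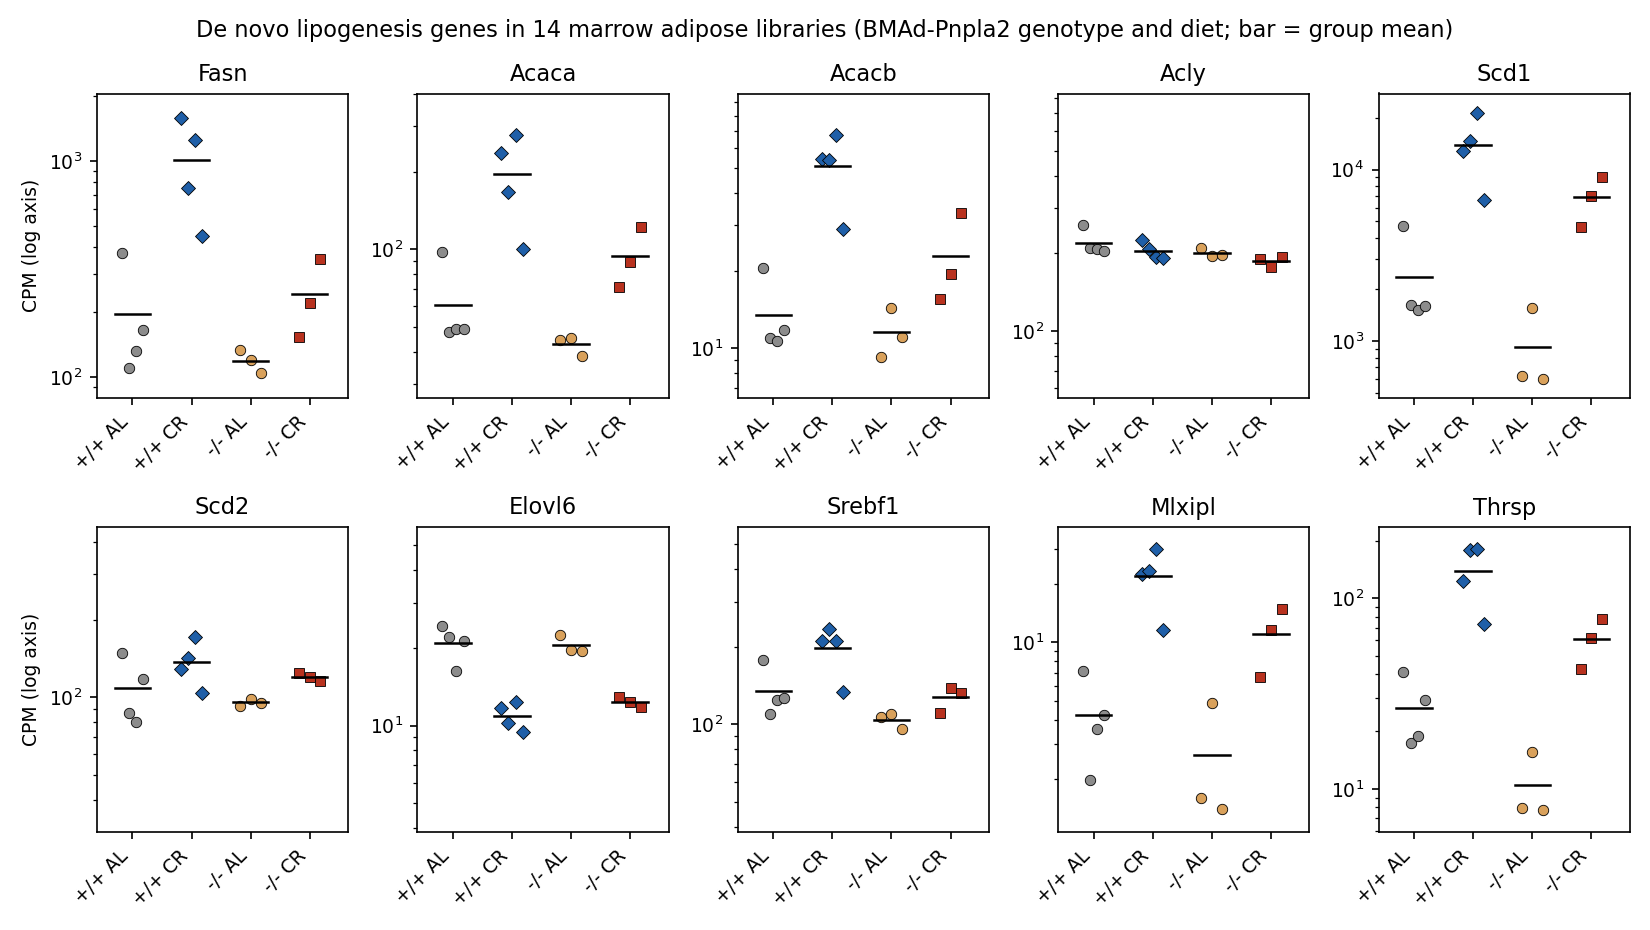
CPM (log axis) of each of the 10 genes in every library, by BMAd-Pnpla2 genotype and diet; points are libraries, each a pool of 2 mice, and bars are group means. Scd1 ran from 604 CPM in BMAd-Pnpla2-/- AL to 21408 CPM in BMAd-Pnpla2+/+ CR, while Acly stayed between 178 and 258 CPM in all 14 libraries.

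Adipocyte markers moved with diet as well, and their summed level was lower in BMAd-Pnpla2-/- although none of the 12 passed the test between genotypes. Of 12 adipocyte markers, 11 rose under CR in BMAd-Pnpla2+/+ and 9 in BMAd-Pnpla2-/-, and none fell. Their summed level ran from 1080 to 2985 CPM in BMAd-Pnpla2+/+ AL, from 3672 to 8883 in BMAd-Pnpla2+/+ CR, from 465 to 1156 in BMAd-Pnpla2-/- AL and from 2217 to 4016 in BMAd-Pnpla2-/- CR. In bulk tissue, a change in the number of adipocytes and a change in RNA per adipocyte cannot be told apart. Among other cell types, 5 of 7 neutrophil markers and 3 of 6 B cell markers fell in BMAd-Pnpla2+/+ CR, and 3 of 6 B cell markers fell in BMAd-Pnpla2-/- CR. In BMAd-Pnpla2+/+ CR, 4 of 7 osteoblast, 3 of 4 endothelial, 2 of 6 macrophage, 2 of 6 stromal and 1 of 5 Schwann cell markers rose, and none of 6 erythroid or 4 tested skeletal muscle markers passed the test. Summed skeletal muscle markers reached 115 CPM in a BMAd-Pnpla2-/- CR library and at most 26.3 CPM in the other groups, and thermogenic adipocyte markers summed to at most 4.04 CPM in any library, with Cidea, which is in both lists, the one that rose in BMAd-Pnpla2+/+. In BMAd-Pnpla2-/- CR, 2 stromal and 1 osteoblast marker rose, and no marker of the other lists but adipocyte and B cell passed the test. The part of these cell types in the members' changes was not tested, other than against the adipocyte markers.

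A pair of BMAd-Pnpla2+/+ libraries stood apart in the members as they did in the adipocyte markers. AL replicate 1 was the highest of its group for 10 of 10 members, and CR replicate 4 was the lowest of its group for 10 of 10. The mean log2 CPM of 8 adipocyte genes (Adipoq, Plin1, Plin4, Cidec, Cfd, Fabp4, Lipe and Pparg), used here as an adipocyte score, was 7.25 in AL replicate 1, while its 3 fellow AL libraries ran from 6.04 to 6.18. It was 7.28 in CR replicate 4 and 8.16 to 8.73 in the other CR libraries. Without both libraries, 8 members rose and 1 fell in BMAd-Pnpla2+/+, beside 3213 and 2718 of 17377 genes. The log2 fold changes of Fasn and Scd1 were then 3.14 and 3.37. Leaving out the highest AL and the lowest CR library raises the CR against AL estimates of this genotype by the choice itself. It likewise lowers the estimates for BMAd-Pnpla2-/- against BMAd-Pnpla2+/+ under CR. Values without both libraries, here and below, are therefore no independent support.

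Fasn, the fatty acid synthase, lies on the minus strand of chr11:120805846-120824547 (GENCODE M21 on mm10) with 42 merged exons. It stood at 377, 110.0, 133 and 166 CPM in BMAd-Pnpla2+/+ AL replicates 1 to 4 and at 1586, 749, 1256 and 451 CPM in the CR replicates. It stood at 134, 120.0 and 104 CPM in BMAd-Pnpla2-/- AL, against 154, 220.3 and 353 CPM in BMAd-Pnpla2-/- CR. The CR libraries were above the AL libraries in both genotypes, without overlap, and every BMAd-Pnpla2-/- CR library was below every BMAd-Pnpla2+/+ CR library. The log2 fold change under CR was 2.36 (SE 0.44, adjusted p = 0.00440) in BMAd-Pnpla2+/+. In BMAd-Pnpla2-/- it was 1.02 (95% interval -0.05 to 2.09, adjusted p = 0.191). Fasn thus passed the test in 1 genotype, and the difference of the 2 responses was -1.34 (95% interval -2.74 to 0.06, edgeR adjusted p = 0.501), which did not pass. Without both libraries that stood apart it was -2.11 (adjusted p = 0.0994). With the 2 BMAd-Pnpla2-/- groups fitted alone, Fasn passed the test in that genotype (adjusted p = 0.0444).

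Acaca and Acacb encode the 2 acetyl-CoA carboxylases, the cytosolic form that feeds fatty acid synthesis and the mitochondrial form whose malonyl-CoA blocks fatty acid import by Cpt1. Acaca lies on the plus strand of chr11:84129672-84401651 and Acacb on the plus strand of chr5:114146535-114250761. Acaca stood at 97.8, 47.9, 49.0 and 48.9 CPM in BMAd-Pnpla2+/+ AL, against 237, 168, 277 and 99.9 in BMAd-Pnpla2+/+ CR. It stood at 44.4, 45.3 and 38.5 CPM in BMAd-Pnpla2-/- AL, against 71.2, 89.1 and 122 in BMAd-Pnpla2-/- CR. Acacb stood at 20.6, 10.96, 10.7 and 11.8 CPM in BMAd-Pnpla2+/+ AL, against 54.5, 53.6, 67.6 and 28.9 in BMAd-Pnpla2+/+ CR, with 9.26, 14.3 and 11.04 CPM in BMAd-Pnpla2-/- AL, against 15.5, 19.5 and 33.6 in BMAd-Pnpla2-/- CR. For both genes the CR and AL libraries did not overlap in either genotype, and for Acaca CR replicate 4 came close to AL replicate 1 in BMAd-Pnpla2+/+. Acaca rose by a log2 of 1.68 (SE 0.31, adjusted p = 0.00406) and Acacb by 1.92 (SE 0.31, adjusted p = 0.00228) in BMAd-Pnpla2+/+. In BMAd-Pnpla2-/- neither passed the test, at 1.14 (SE 0.36, adjusted p = 0.0543) and 0.99 (SE 0.35, adjusted p = 0.0849). Acaca passed it in that genotype with DESeq2 (adjusted p = 0.0162), on the deposited matrix (0.0349) or in a fit of the 2 BMAd-Pnpla2-/- groups alone (0.0138), and without BMAd-Pnpla2+/+ AL replicate 1, CR replicate 3 or CR replicate 4 (0.0261 to 0.0417). Acacb passed it with DESeq2 (0.0446), and without both libraries that stood apart Acaca and Acacb both did (0.00767 and 0.0262).

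Scd1, the main stearoyl-CoA desaturase of fat, lies on the minus strand of chr19:44394455-44407879, and Scd2, the form best known from brain, on the plus strand of chr19:44293674-44306864. Scd1 stood at 4707, 1616, 1518 and 1605 CPM in BMAd-Pnpla2+/+ AL, against 12808, 14612, 21408 and 6608 CPM in BMAd-Pnpla2+/+ CR. It stood at 621, 1547 and 604 CPM in BMAd-Pnpla2-/- AL, against 4633, 7039 and 9047 CPM in BMAd-Pnpla2-/- CR. The groups of AL and CR libraries did not overlap in either genotype. Scd1 held 0.647% to 2.25% of all gene counts of a BMAd-Pnpla2+/+ CR library, where it ranked between 1 and 6 among genes by count, and 0.0583% to 0.149% in BMAd-Pnpla2-/- AL, where it ranked between 40 and 164. It rose by a log2 of 2.55 (SE 0.48, adjusted p = 0.00449) in BMAd-Pnpla2+/+ and of 2.90 (SE 0.57, adjusted p = 0.0113) in BMAd-Pnpla2-/-. Without BMAd-Pnpla2-/- AL replicate 2 the latter was 3.49. The difference of the responses was 0.35 (95% interval -1.15 to 1.85).

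Scd2 stood at 149, 87.2, 80.5 and 118 CPM in BMAd-Pnpla2+/+ AL, against 129, 142, 171 and 104 in BMAd-Pnpla2+/+ CR, which overlapped. It stood at 92.4, 98.7 and 95.4 CPM in BMAd-Pnpla2-/- AL, against 124, 120.3 and 116 in BMAd-Pnpla2-/- CR, which did not. The log2 fold change was 0.33 in both genotypes (SE 0.18, adjusted p = 0.178, and SE 0.21, adjusted p = 0.308). It passed the test in BMAd-Pnpla2+/+ without AL replicate 1 (0.52, adjusted p = 0.0333) and in BMAd-Pnpla2-/- when its 2 groups were fitted alone (adjusted p = 0.0392). AL replicate 1 was the highest of its group, so leaving it out raises the first estimate by the choice itself. Per kilobase of exon, Scd1 was 15.2 to 35.4 times Scd2 in BMAd-Pnpla2+/+ AL, against 71.1 to 140 times in BMAd-Pnpla2+/+ CR. In BMAd-Pnpla2-/- the ratio was 7.07 to 17.5 under AL and 41.7 to 87.1 under CR. Reads that map equally well to more than 1 of the Scd genes were not counted.

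Elovl6, the elongase of palmitate, lies on the plus strand of chr3:129532355-129638495 and was the member that fell. It stood at 24.3, 22.1, 16.3 and 21.3 CPM in BMAd-Pnpla2+/+ AL, against 11.7, 10.3, 12.3 and 9.41 in BMAd-Pnpla2+/+ CR. It stood at 22.4, 19.7 and 19.4 CPM in BMAd-Pnpla2-/- AL, against 12.9, 12.3 and 11.8 in BMAd-Pnpla2-/- CR. The CR libraries were below the AL libraries in both genotypes, without overlap. The log2 fold change was -0.94 (SE 0.13, adjusted p = 0.00113) in BMAd-Pnpla2+/+ and -0.73 (SE 0.15, adjusted p = 0.0126) in BMAd-Pnpla2-/-. The latter did not pass the test without BMAd-Pnpla2-/- CR replicate 3 (-0.70, adjusted p = 0.0603).

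Acly, the citrate lyase at the head of the pathway, lies on the minus strand of chr11:100476353-100528000. It stood at 258, 210.5, 208 and 204 CPM in BMAd-Pnpla2+/+ AL, against 225, 209, 193 and 191 in BMAd-Pnpla2+/+ CR. It stood at 210.2, 195 and 197 CPM in BMAd-Pnpla2-/- AL, against 189.9, 178 and 194 in BMAd-Pnpla2-/- CR. In BMAd-Pnpla2-/- the CR libraries were below the AL libraries without overlap, though barely. The highest CR library was at 194.47 CPM and the lowest AL library at 194.72 CPM. In BMAd-Pnpla2+/+ the groups overlapped. The log2 fold change under CR was -0.11 (95% interval -0.30 to 0.09) in BMAd-Pnpla2+/+ and -0.10 (-0.32 to 0.12) in BMAd-Pnpla2-/-, with adjusted p = 0.393 and 0.570.

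Among the factors, Mlxipl lies on the plus strand of chr5:135089890-135138382 and had the fewest reads of the members, with 26 to 665 counts a library. It stood at 7.10, 1.98, 3.601 and 4.23 CPM in BMAd-Pnpla2+/+ AL, against 22.3, 23.3, 30.0 and 11.5 in BMAd-Pnpla2+/+ CR. It stood at 1.60, 4.91 and 1.39 CPM in BMAd-Pnpla2-/- AL, against 6.67, 11.6 and 14.9 in BMAd-Pnpla2-/- CR. All CR libraries were above all AL libraries of their genotype. The log2 rise was 2.36 (SE 0.45, adjusted p = 0.00481) in BMAd-Pnpla2+/+ and 2.06 (SE 0.54, adjusted p = 0.0296) in BMAd-Pnpla2-/-. The latter missed the threshold without BMAd-Pnpla2-/- AL replicate 1 or 3 or CR replicate 2 or 3 (adjusted p 0.0736 to 0.113), and was 2.88 without AL replicate 2.

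Thrsp lies on the minus strand of chr7:97412938-97417730. It stood at 41.0, 17.5, 18.8 and 29.1 CPM in BMAd-Pnpla2+/+ AL, against 123, 179, 181 and 73.1 in BMAd-Pnpla2+/+ CR. It stood at 7.93, 15.7 and 7.77 CPM in BMAd-Pnpla2-/- AL, against 42.7, 61.9 and 77.7 in BMAd-Pnpla2-/- CR. The groups did not overlap under CR and AL in either genotype. The log2 rise was 2.39 (SE 0.36, adjusted p = 0.00175) in BMAd-Pnpla2+/+ and 2.54 (SE 0.43, adjusted p = 0.00850) in BMAd-Pnpla2-/-.

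Srebf1 lies on the minus strand of chr11:60199089-60222581 and overlaps Rai1 on the other strand. It stood at 179, 110.0, 124 and 127 CPM in BMAd-Pnpla2+/+ AL, against 211, 234, 211 and 134 in BMAd-Pnpla2+/+ CR. It stood at 106, 110.0 and 95.7 CPM in BMAd-Pnpla2-/- AL, against 111, 139 and 132 in BMAd-Pnpla2-/- CR. The groups overlapped in BMAd-Pnpla2+/+ through AL replicate 1 and CR replicate 4, and in BMAd-Pnpla2-/- the lowest CR library (111 CPM) lay just above the highest AL library (110.0 CPM). The log2 fold change was 0.55 (SE 0.17, adjusted p = 0.0327) in BMAd-Pnpla2+/+ and 0.29 (SE 0.20, adjusted p = 0.359) in BMAd-Pnpla2-/-. The first did not pass the test when the 2 BMAd-Pnpla2+/+ groups were fitted alone (adjusted p = 0.0787), nor without any 1 of AL replicates 2 to 4, CR replicates 1 to 3 or BMAd-Pnpla2-/- AL replicates 1 and 3 (0.05004 to 0.0968). The deposited counts do not separate the transcripts of Srebf1, which encode SREBP-1a and SREBP-1c.

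In BMAd-Pnpla2-/- as a whole, 3 members rose under CR (Scd1, Mlxipl and Thrsp) and Elovl6 fell, where 11.6% of all genes changed (1051 rose and 974 fell). The 3 that rose also passed a log2 fold change of 1, against 2.59% of all genes. The groups did not overlap for 8 members that were higher (20.5% of all genes) and 2 that were lower (17.4%), and the median log2 fold change was 1.004 over the members and 0.05 over all genes. With the 2 BMAd-Pnpla2-/- groups fitted alone, 7 members passed the test, as did 2657 of 16406 genes. Without CR replicate 3 only Scd1 and Thrsp passed, where 248 of 17951 genes did.

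**Figure D2:**
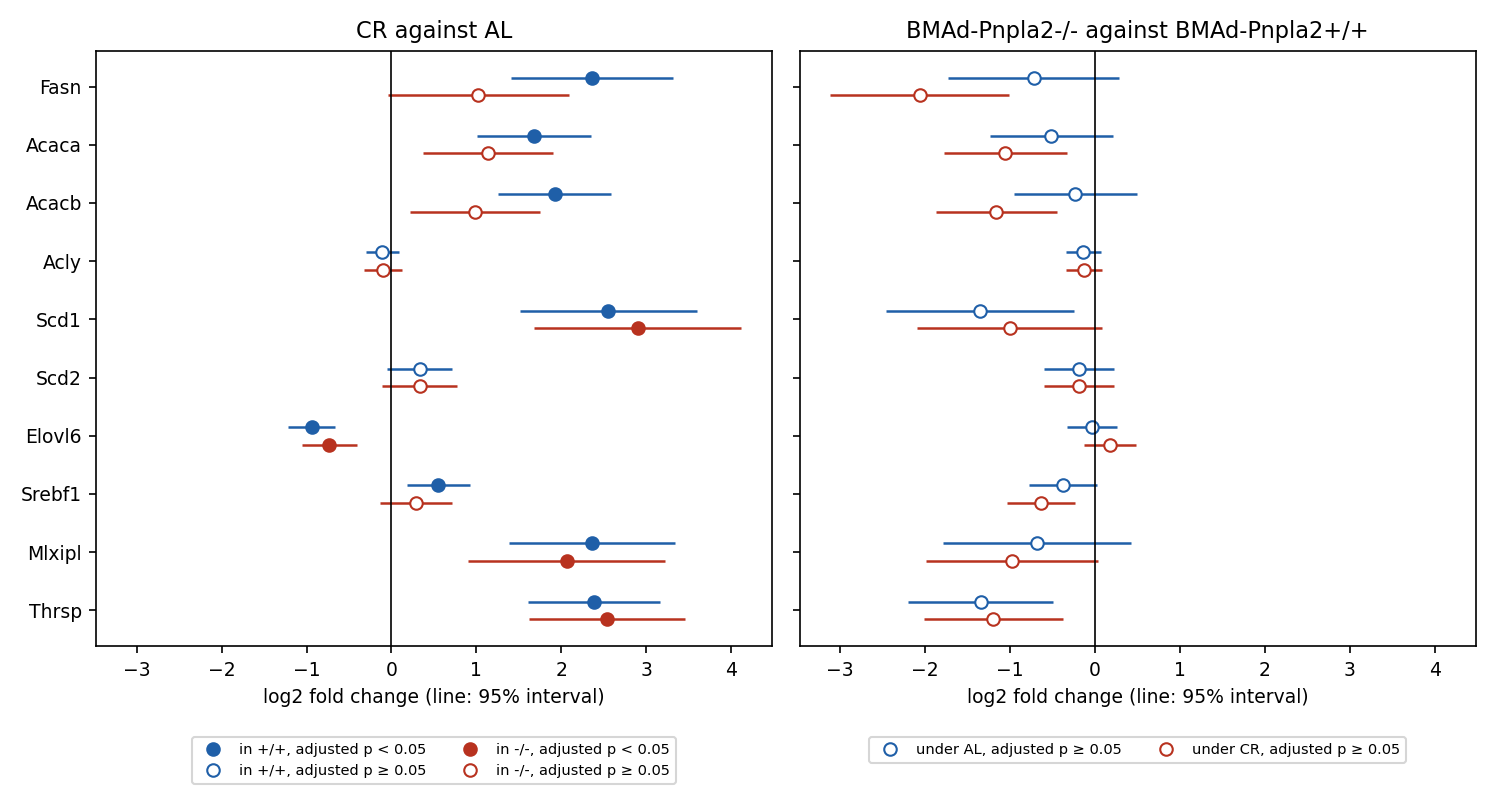
Log2 fold change (points) with 95% interval (lines) of each of the 10 genes, for CR against AL in each genotype (left) and for BMAd-Pnpla2-/- against BMAd-Pnpla2+/+ under each diet (right); filled points have an adjusted p under 0.05. On the left, 8 points are filled for BMAd-Pnpla2+/+ and 4 for BMAd-Pnpla2-/-, and on the right none are.

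Between genotypes, the estimates were lower in BMAd-Pnpla2-/- for most members under both diets, and none passed the test. Under AL, 0 of 10 members and 0% of all genes had an adjusted p under 0.05 in edgeR, with 2 members and 694 genes at an unadjusted p under 0.05. The 2 members were Scd1 (log2 fold change -1.35, SE 0.51) and Thrsp (-1.35, SE 0.40). BMAd-Pnpla2-/- AL lay below BMAd-Pnpla2+/+ AL without overlap for Acaca and Thrsp (3.14% of all genes) and no member lay above (2.31%). DESeq2 called no member either. Without BMAd-Pnpla2+/+ AL replicate 1, the estimates of Acacb, Scd2 and Elovl6 changed sign, to 0.0475, 0.00506 and 0.0444.

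Under CR, again 0 of 10 members passed the test, as did 0.0171% of all genes, which are 3 genes with Pnpla2 among them. At an unadjusted p under 0.05 there were 5 members and 4052 genes. Those members were Fasn (log2 fold change -2.06, SE 0.49, adjusted p = 0.0636), Acacb (-1.16, SE 0.33, 0.0851), Srebf1 (-0.63, SE 0.19, 0.0900), Acaca (-1.05, SE 0.34, 0.104) and Thrsp (-1.19, SE 0.38, 0.103). Fasn was the member whose groups did not overlap and lay lower (8.11% of all genes), and no member lay higher without overlap (8.68%). The median log2 difference was -0.99 over the members and -0.01 over all genes. These same 5 members passed the test with DESeq2, where 1471 of 23271 genes did. They also passed without BMAd-Pnpla2+/+ CR replicate 4, where 2092 of 17441 genes did. That library was the lowest of its group for all 10 members, so leaving it out lowers these estimates by the choice itself. This fit is no independent support. On the deposited matrix, which mixes counts with and without strand, 3 members passed, as did 2451 of 17509 genes. The genotype by diet interaction was past the test for 0 of 10 members and 0% of all genes, and 0 members but 1824 genes had an unadjusted p under 0.05. The intervals of the interaction spanned 0 for each member and were as wide as -1.15 to 1.85 for Scd1.

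Set against the adipocyte genes of the same library, the members parted into 3 sets under CR, on the mean of the 2 genotypes. The adipocyte score itself was higher under CR by a log2 of 1.82 and lower in BMAd-Pnpla2-/- by 1.01 (two-sided exact permutation test within genotype or diet, p = 0.00143 and 0.0114). Relative to the score, Scd1 (log2 difference 0.99, exact p = 0.00143), Thrsp (0.65, exact p = 0.00143) and Mlxipl (0.47, exact p = 0.0171) were higher under CR. Their adjusted p over all 17494 genes was 0.00297, 0.00297 and 0.0185. Only 0.360% of all genes, 63 in number, were higher on this scale, and 95.1% were lower, with a median of -1.80. The adjusted p is thus set mostly by the genes that were lower, and does not limit error among those that were higher. Fasn (-0.16, exact p = 0.667), Acacb (-0.41, exact p = 0.136) and Acaca (-0.44, exact p = 0.126) did not pass, although Acaca was called lower without BMAd-Pnpla2+/+ CR replicate 1 (adjusted p = 0.0396) or BMAd-Pnpla2-/- AL replicate 2 (0.0404). These values are means of the differences within the 2 genotypes, which went opposite ways for Fasn and Acacb. The mean relative level of Fasn was 1.03 under AL and 1.63 under CR in BMAd-Pnpla2+/+, against 1.53 and 0.62 in BMAd-Pnpla2-/-. That of Acacb was -2.70 and -2.57, against -1.84 and -2.78. Whether the genotypes differed in this response was not tested on the relative scale. Srebf1 (-1.40), Scd2 (-1.48), Acly (-1.92) and Elovl6 (-2.65) were lower, each at an exact p of 0.00143, the smallest this permutation can give. Of these, Acly lay close to the median of all genes and Elovl6 beyond it. When Adipoq alone took the place of the score, Scd1, Thrsp and Mlxipl no longer passed (adjusted p = 0.1101, 0.340 and 0.746), and the same 4 genes were lower. Over all genes, 10 were then higher and 16722 lower.

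By genotype, Acly (0.88), Scd2 (0.86), Elovl6 (1.09) and Srebf1 (0.53) were higher relative to the score in BMAd-Pnpla2-/-, as were 85.7% of all genes, with a median of 1.01. Thrsp was lower (-0.23, exact p = 0.0131, adjusted p = 0.0256), as were 0.0572% of all genes, 10 in number. With 85.7% of genes on the higher side, this adjusted p does not limit error among the genes that were lower. The other 5 members did not pass, with Fasn at -0.26 (exact p = 0.477). For Fasn this is a mean over diets that went opposite ways. Its mean relative level was 1.53 in BMAd-Pnpla2-/- AL against 1.03 in BMAd-Pnpla2+/+ AL. Under CR the levels were 0.62 and 1.63. None of the genotype calls above held against Adipoq alone, nor without BMAd-Pnpla2-/- AL replicate 1, AL replicate 3 or CR replicate 1. The calls over all genes fell as well, from 14999 higher and 10 lower. They were 0 and 0 with Adipoq alone or without AL replicate 3, 732 and 1 without AL replicate 1, and 2153 and 2 without CR replicate 1. Thrsp also missed the threshold without BMAd-Pnpla2-/- AL replicate 2, and Srebf1 without BMAd-Pnpla2+/+ AL replicate 1, CR replicate 2 or CR replicate 3.

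**Figure D3:**
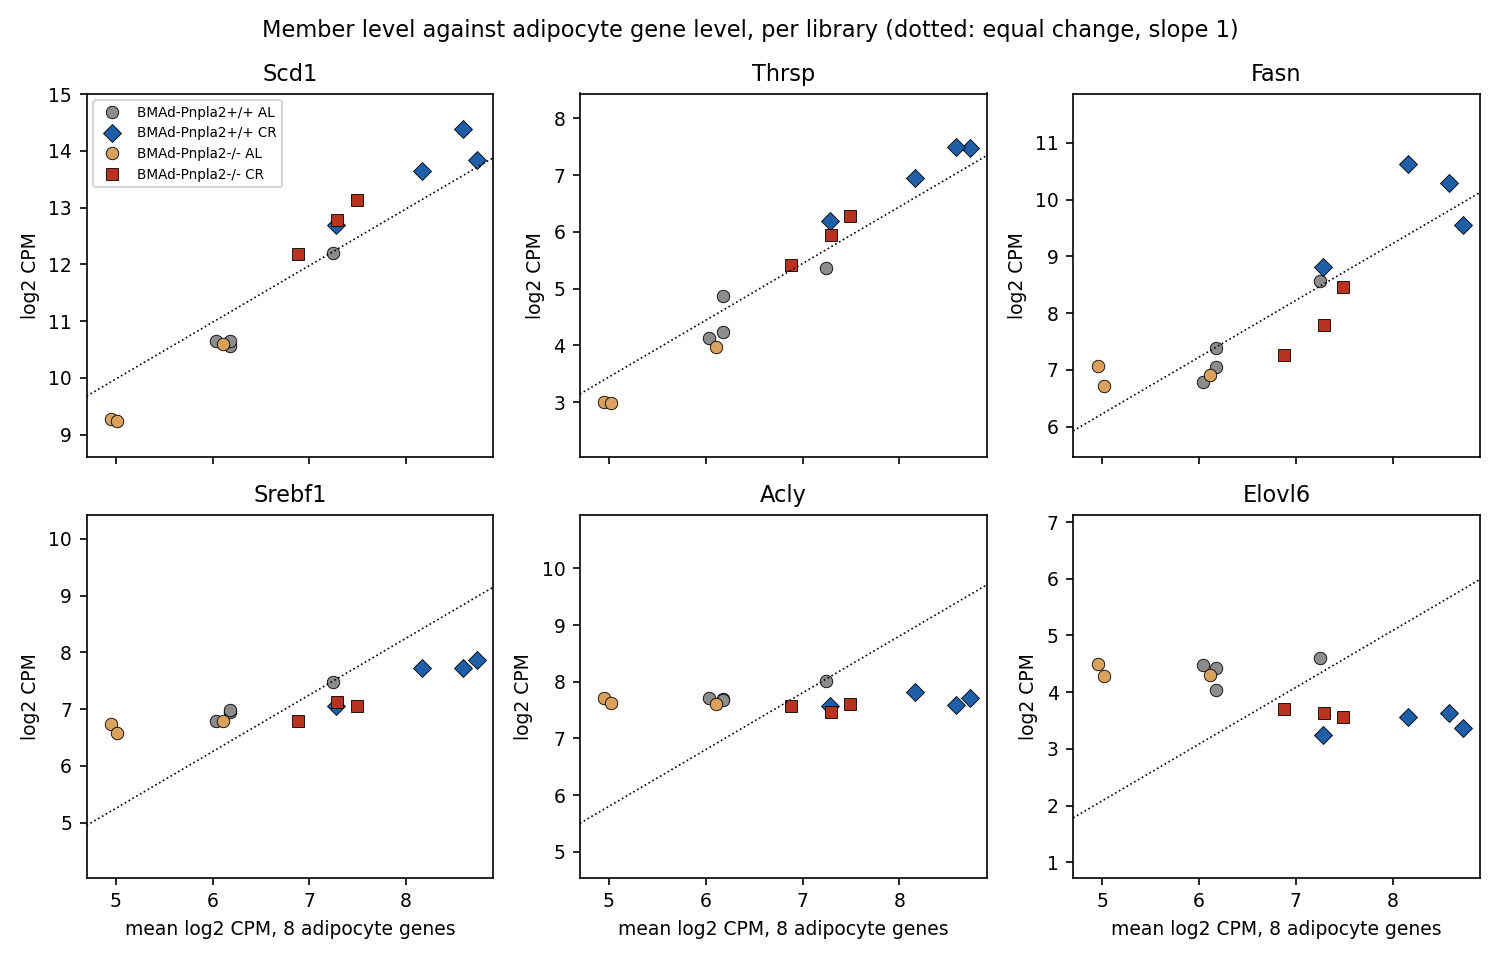
Log2 CPM of 6 members against the mean log2 CPM of 8 adipocyte genes in each of the 14 libraries, by genotype and diet; the dotted line of slope 1 marks a change equal to that of the adipocyte genes. Scd1 and Thrsp climbed at least as steeply as the line, while Acly stayed level and Elovl6 fell. At scores of 7.25 to 7.29, a range picked after the values were seen, Scd1 and Thrsp were higher in the CR libraries than in the only AL library there, BMAd-Pnpla2+/+ AL replicate 1.

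The 3 libraries with nearly the same adipocyte score, picked after their values were seen, restate the relative levels above in CPM and are no further support for them. The first 2 of them are the libraries that stood apart. The scores were 7.25 in BMAd-Pnpla2+/+ AL replicate 1, 7.28 in BMAd-Pnpla2+/+ CR replicate 4 and 7.29 in BMAd-Pnpla2-/- CR replicate 2. In that order, Scd1 stood at 4707, 6608 and 7039 CPM and Thrsp at 41.0, 73.1 and 61.9 CPM, both higher in the CR libraries. Fasn stood at 377, 451 and 220.3 CPM, lowest in the knockout. Elovl6 stood at 24.3, 9.41 and 12.3 CPM and Srebf1 at 179, 134 and 139 CPM, both highest in the AL library.

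The order of the members per kilobase of exon also shifted with diet. In every group Scd1 was the highest, from 310.3 to 962 CPM per kilobase in BMAd-Pnpla2+/+ AL and from 1351 to 4376 in BMAd-Pnpla2+/+ CR, above the next gene without overlap. In BMAd-Pnpla2+/+ AL, Acly came next at 38.7 to 49.0, followed by Srebf1, Scd2 and Fasn, whose ranges overlapped. Mlxipl was last at 0.357 to 1.28, overlapping Acacb at 1.11 to 2.13. In BMAd-Pnpla2+/+ CR, Fasn (41.2 to 145) and Thrsp (33.4 to 82.9) came next after Scd1, overlapping each other and Acly (36.3 to 42.7). Elovl6 was last there at 1.46 to 1.91, below Mlxipl at 2.08 to 5.42 without overlap. In BMAd-Pnpla2-/- CR, Acly (33.7 to 36.8) again came after Scd1, overlapping Thrsp (19.5 to 35.5), and Fasn ranked 5 at 14.04 to 32.2, overlapping Thrsp, Srebf1 and Scd2.

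Ratios within a library, chosen after the values were seen and given without a test, do not depend on the scaling of libraries. Acaca stood at 1.76 to 2.71 times Acacb per kilobase in all 14 libraries. Fasn stood at 3.36 to 6.02 times Acaca in 3 of the groups and at 6.97 to 10.4 times in BMAd-Pnpla2+/+ CR, above all others. Scd1 stood at 57.4 to 71.5 times Fasn in BMAd-Pnpla2-/- CR, above the 18.1 to 43.6 of BMAd-Pnpla2+/+ CR, the 21.6 to 32.9 of BMAd-Pnpla2+/+ AL and the 10.4 to 28.8 of BMAd-Pnpla2-/- AL. Srebf1 stood at 24.7 to 54.6 times Mlxipl in BMAd-Pnpla2+/+ AL, against 22.0 to 67.5 times in BMAd-Pnpla2-/- AL. Under CR these ranges were 6.90 to 11.4 and 8.75 to 16.3.

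**Figure D4:**
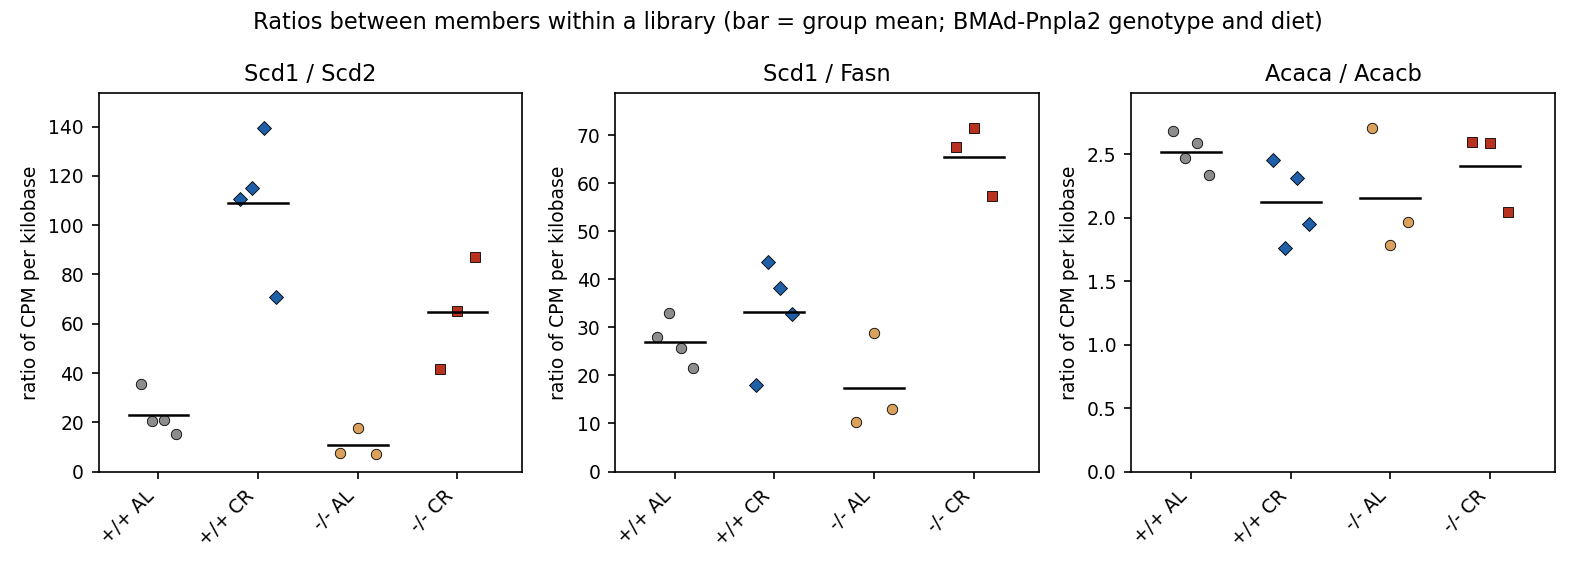
Ratio of CPM per kilobase of exon within each library for Scd1 to Scd2, Scd1 to Fasn and Acaca to Acacb, by BMAd-Pnpla2 genotype and diet; points are libraries and bars group means. Scd1 to Fasn was highest in the 3 BMAd-Pnpla2-/- CR libraries (57.4 to 71.5), and Acaca to Acacb stayed between 1.76 and 2.71.

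Other genes of the pathway were read from 5 lists, beside the 26.0% of all genes that passed the test in BMAd-Pnpla2+/+ and the 11.6% in BMAd-Pnpla2-/-. Several lists lay near these shares, each held only 6 to 11 tested genes, and nothing particular to a list is read from its counts. The median log2 fold changes of the lists ran from -0.12 to 0.23 in BMAd-Pnpla2+/+, against 0.003 over all genes, and from -0.22 to 0.20 in BMAd-Pnpla2-/-, against 0.05. Of 8 genes that supply carbon and NADPH, 4 rose and 2 fell in BMAd-Pnpla2+/+ under CR, and 1 rose and 2 fell in BMAd-Pnpla2-/-. Me1, the cytosolic malic enzyme that makes NADPH, rose by a log2 of 2.39 (SE 0.43, adjusted p = 0.00366) in BMAd-Pnpla2+/+ and 1.89 (SE 0.50, adjusted p = 0.0310) in BMAd-Pnpla2-/-. In BMAd-Pnpla2+/+, the citrate carrier Slc25a1 rose by 0.63 (SE 0.17) and the acetyl-CoA synthetase Acss2 by 0.44 (SE 0.14). Pgd, of the pentose phosphate pathway, fell by 0.44 (SE 0.11) in BMAd-Pnpla2+/+ and by 0.52 (SE 0.13) in BMAd-Pnpla2-/-. Its neighbour in that pathway, G6pdx, named after its values were seen, fell by 0.34 and 0.58. Me1 thus rose while Pgd and G6pdx fell in both genotypes. Idh1, also of this list, had means of 80.4 CPM under AL and 89.3 under CR in BMAd-Pnpla2+/+. In BMAd-Pnpla2-/- its means were 80.5 and 88.4 CPM.

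Of 11 tested genes of elongation and desaturation, 4 rose and none fell in BMAd-Pnpla2+/+, and 1 rose and 1 fell in BMAd-Pnpla2-/-. Scd3 rose by a log2 of 1.70 (SE 0.45) and 2.75 (SE 0.71), at a mean of only 0.509 CPM. In BMAd-Pnpla2+/+, the dehydratase Hacd2 of the elongation cycle rose by 0.99 (SE 0.13), the desaturase Fads1 by 0.58 (SE 0.14) and the ketoacyl reductase Hsd17b12 by 0.44 (SE 0.13). Elovl3, an elongase of brown fat, was below the filter. Of 6 genes that process SREBPs, 1 rose in each genotype, Insig2, which holds SREBPs in the endoplasmic reticulum, by 0.67 (SE 0.17) and 0.66 (SE 0.20), and Scap fell in BMAd-Pnpla2-/- by 0.31. Elovl1 fell by 0.39 in BMAd-Pnpla2-/-, and like Scap was named after its values were seen.

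Of 6 nuclear and carbohydrate-responsive factors, Rxra rose by a log2 of 0.79 (SE 0.21) in BMAd-Pnpla2+/+, and Mlx, the partner of Mlxipl, and Usf1 fell by 0.31 (SE 0.10) and 0.29 (SE 0.09). In BMAd-Pnpla2-/-, 0 rose and Usf1 fell by 0.38. Of 6 tested regulators of acetyl-CoA carboxylase and malonyl-CoA, Prkaa2, a catalytic subunit of AMP-activated protein kinase, rose by 0.83 (SE 0.26) and Mid1ip1, a paralogue of Thrsp that activates the carboxylase, fell by 0.55 (SE 0.11) in BMAd-Pnpla2+/+. None passed the test in BMAd-Pnpla2-/-. Thrsp and its paralogue moved in opposite directions in BMAd-Pnpla2+/+. No gene of these 5 lists passed the test between genotypes or for the interaction.

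Over the 14 libraries, the genes with the pattern most like that of 4 members were found by the root mean square difference of centred log2 CPM among 11646 other genes of at least 5 CPM. Nearest to Scd1 was Car3, a carbonic anhydrase of fat and muscle and one of the adipocyte markers above, at 0.149, with A530016L24Rik at 0.225, where Scd1 itself varied with an SD of 1.62. Nearest to Fasn was Pnpla2, at 0.435, followed by Gpd1 (0.481) and Me1 (0.485). Pnpla2 is the deleted gene, so its level in the knockout libraries is set by the deletion as well. Nearest to Scd2 were Pon3 (0.133), Socs5 (0.133) and Bpnt1 (0.146), and to Srebf1 Mccc2 (0.115), Sh3glb2 (0.124) and Sdk2 (0.141). Fasn itself varied with an SD of 1.28, Scd2 of only 0.30 and Srebf1 of only 0.40. Genes that vary little lie close on this measure, so its values do not compare likeness between members. Among the members, the closest pairs were Acaca with Acacb (0.210), Scd2 with Srebf1 (0.246) and Scd1 with Thrsp (0.303).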

How the data were processed

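RNA-seq was made from cBMAT of 14 libraries, each a pool of 2 mice, as strand-specific mRNA libraries with FastQC 0.11.9, STAR at default settings and mm10, according to the methods and the submitters' processing notes. The authors deposited raw counts per gene from STAR in a table for each library, without regard to strand and for each strand, and a matrix of raw counts of 23441 genes. The matrix columns equalled the reverse-strand counts in 11 libraries and the counts without strand in 3. STAR counts only reads that map to 1 place. The study tested with DESeq2.

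The counts without regard to strand of the genes in the matrix were analysed here, with 18898324 to 21665553 counts a library. edgeR 4.0.16 in R 4.3.3 was run with TMM scaling (factors 0.958 to 1.07), filterByExpr over the 4 groups, and a robust quasi-likelihood fit of 1 model of all 14 libraries. P-values were adjusted by Benjamini-Hochberg over the 17494 genes tested, at a threshold of 0.05. DESeq2 1.42.0 was an alternative. On simulated data with 200 changed genes (log2 of 2), edgeR recovered 89.5% in BMAd-Pnpla2+/+ and 86.5% in BMAd-Pnpla2-/-, with 9 and 15 false calls. The simulation covered CR against AL alone, with noise drawn independently for each gene. Recovery was not measured for the genotype comparisons, the interaction or smaller changes. CPM used the TMM library sizes, log2 CPM a prior count of 2, and level between genes the length of merged exons. Levels relative to 8 adipocyte genes were tested by exact permutation of diet within genotype or genotype within diet, with adjustment over all genes in place of the 10 members alone as first planned. P-values measure the spread between libraries. Alternatives were the matrix, DESeq2, its size factors, total counts, no filter, only the groups compared, each library left out, the replicate number as a block, Adipoq alone and a prior count of 0.5. Fits with all genes of the per-sample tables and without both libraries that stood apart were added after seeing the data. Those libraries were picked for their levels, so the fit without them is no independent check.

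All 10 members are named. Of each pathway list, up to 4 genes with the largest change among those past the test in BMAd-Pnpla2+/+ are named, and for 4 members the 3 other genes nearest in pattern, of which 1 is not reported here. The members and lists were chosen with earlier results of these data known.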

Additional observations from a re-analysis of the deposited data

Results flagged for a closer look

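In groups of 4 libraries, 1 library stood apart from the other 3 by Dixon's test in 8 of 44 sets of values, where chance flags about 1 in 20. The sets come from the same libraries and are not independent, so the 2 shares cannot be weighed as separate tests. BMAd-Pnpla2+/+ AL replicate 1 stood apart in 6 of the 8, and BMAd-Pnpla2+/+ CR replicate 4 was not flagged. The level in AL replicate 1 was 6.61 log2 CPM for Acaca (5.59 to 5.62 in the others), 4.37 for Acacb (3.43 to 3.58), 8.01 for Acly (7.68 to 7.72) and 12.20 for Scd1 (10.57 to 10.66). Its adipocyte score was 7.25 (6.04 to 6.18), and its Srebf1 level relative to that score was 0.23 (0.75 to 0.81). Relative to the score, Thrsp was -1.31 in BMAd-Pnpla2+/+ AL replicate 4 (-1.93 to -1.89 in the others), and Mlxipl was -4.18 in BMAd-Pnpla2+/+ CR replicate 2 (-3.74 to -3.67).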

How the results depend on the processing

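The number of members past the test in BMAd-Pnpla2+/+ stayed between 7 and 9 in all fits, where 2200 to 5959 genes passed. In BMAd-Pnpla2-/- it was 7 in place of 4 with only the groups compared, 6 with DESeq2 or without both libraries that stood apart, 5 on the deposited matrix, and 2 to 5 with 1 library left out, where 2 came without CR replicate 3. The calls over all genes moved too, from 2025 of 17494 genes in the main fit to 2657 of 16406 with only the groups compared. They were 2984 of 23271 with DESeq2, 2416 of 17377 without both libraries, 3898 of 17509 on the matrix and 248 of 17951 without CR replicate 3. Between genotypes under CR the number of members was 3 on the deposited matrix, 5 with DESeq2, 6 without both libraries that stood apart, and 0 to 5 with 1 library left out, in place of 0. Over all genes, 3 of 17494 passed in the main fit. This was 2451 of 17509 on the matrix, 1471 of 23271 with DESeq2 and 2285 of 17377 without both libraries. Under AL and for the interaction the number of members was 0 in each fit. Relative to adipocyte genes, 4 members passed by diet with Adipoq alone in place of 7 (7 to 8 with 1 library left out), and 0 by genotype in place of 5 (0 to 5). By genotype, 0 of 17494 genes passed with Adipoq alone, against 14999 higher and 10 lower with the score. The cause was not tested.

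Signs turned only for values that did not pass the test. Without both libraries that stood apart, Acly under CR in BMAd-Pnpla2+/+ was 0.0105, and under AL the genotype difference was 0.0476 for Acacb, 0.00502 for Scd2 and 0.0444 for Elovl6. With 1 library left out these ran from -0.41 to 0.0475, -0.30 to 0.00506 and -0.13 to 0.0444. The interaction of Acly was -0.0248 with DESeq2, -0.0201 with its size factors, -0.0441 with no filter and -0.109 without both libraries, and that of Scd2 was -0.0325, -0.0286, -0.0517 and -0.299. Without both libraries it was -0.46 for Scd1 and -0.35 for Thrsp. With 1 library left out it ran from -0.0786 to 0.0662 for Acly, -0.23 to 0.94 for Scd1, -0.19 to 0.13 for Scd2, -0.67 to 0.52 for Mlxipl and -0.14 to 0.56 for Thrsp. Mlxipl relative to Adipoq alone was -0.0507 by genotype.

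With the replicate number as a block, 8 members passed in BMAd-Pnpla2+/+, 5 in BMAd-Pnpla2-/- (Acaca was added, adjusted p = 0.0389) and 0 in the other comparisons, and the interaction of Scd2 was -0.00619. In that fit 4199 of 17494 genes passed in BMAd-Pnpla2+/+ and 1794 in BMAd-Pnpla2-/-. Of 19 same-numbered pairs, 6 correlated above 0.1 over 2000 genes, in a range of -0.363 to 0.288. Differently numbered pairs were not compared, so these values cannot decide whether the numbers pair the libraries. The depth gave Mlxipl as few as 26 counts.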
